A study of Zea mays with 56 samples.

Results

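The 20 ends of the maize chromosomes, taken as the outer 10 Mb on each side of chromosomes 1 to 10, held 449238 of the 2253850 Mu insertion sites in the deposited table. A site belonged to an end when its first listed border position was at most 10000000 or lay within 10000000 of the highest such position on that chromosome. The ends made up 9.43% of the chromosome length and held 19.9% of the chromosomal sites, while 1803531 sites lay in the middle of the chromosomes and 1081 on scaffolds. The low-coordinate side of a chromosome is called its first end and the high-coordinate side its last end.

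Mu elements are DNA transposons of maize whose insertion duplicates a short stretch of target DNA, and they are known to insert mostly near the 5′ ends of genes. Maize chromosome ends are in general rich in genes and in meiotic recombination, whereas the regions around the centromeres are filled largely with retrotransposons. An insertion made early in the growth of a tissue is carried by many cells and gives many junction reads, whereas one made late is carried by few. Of the sites in the ends, 99.9951% spanned 9 bp from border to border.

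MuSeq2 amplifies and sequences the junctions between Mu ends and the genome. The plants were of the W22 inbred background, and Mu-active plants came from a Mu-active father and a Mu-inactive mother. Sample titles give plants 42 and 52 the prefix ND67, the other Mu-active plants ND58 and the Mu-inactive plants another. The ND67 plants gave endosperm and pollen only, and both Mu-active prefixes were pooled. An endosperm chip was cut from each kernel, and the seedling gave V2 leaf, primary root or both and the mature plant pollen. Undiluted libraries of 15 endosperms, 6 leaves (as 8 libraries), 6 primary roots and 14 pollen samples (as 15 libraries) were Mu-active, from 17 plants with the MuKiller-labelled kernels below. A further 2 endosperms have a genotype label that adds B73 MuKiller to W22 MuActive and were kept out of the endosperm group. They come from plants 61 and 74, whose root libraries, and the leaf and pollen of plant 74, are labelled W22 MuActive and stayed in their tissue groups, and both endosperms count among the new sites and the 17 plants of the recurrence counts. A further 4 libraries came from seedling leaves of 3 Mu-inactive plants of the maternal genotype. Diluted leaf libraries were not used, and 18768 of the end sites were read in them alone. A column kit served for DNA of leaf and root and a CTAB extraction for that of pollen and endosperm, so tissue and extraction cannot be told apart except within those pairs.

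A new site had at least 1 count in a Mu-active library, was absent from every Mu-inactive leaf library and was not classed as inherited. Inherited sites had at least 0.1 of the reference level both in the endosperm and in another tissue of a plant, where the reference level is the median count of 28 sites with at least 10 counts in every undiluted library. By this definition the ends held 429239 new sites and the middle 1715245. An endosperm library held 1479 to 37443 of these new end sites, a leaf library 16085 to 46529, a root library 1115 to 10276 and a pollen library 378 to 21495. Total counts were lowest in pollen, from 7119 to 745604 per library, and 7 libraries had a reference level under 1000.

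New insertions were denser in the chromosome ends than in the middle in every plant and tissue sampled. Within each library the number of new sites per Mb of the 20 ends was divided by that of the middle, so that depth enters both sides. In endosperm the lowest, median and highest ratios were 2.45, 2.57 and 2.63 over 15 plants. In leaf they were 2.55, 2.58 and 2.62 over 6 plants, in root 2.50, 2.61 and 2.70 over 6 plants, and in pollen 2.60, 2.72 and 2.86 over 14 plants. The values of all plants lay above 1, and the ranges of all 4 tissues overlapped. On the log2 scale the mean was 1.35 ± 0.030 (SD, n = 15) in endosperm (exact sign-flip test over plants, two-sided, adjusted p = 0.000244) and 1.44 ± 0.032 (SD, n = 14) in pollen (exact sign-flip test, adjusted p = 0.000244). It was 1.37 ± 0.013 (SD, n = 6) in leaf and 1.38 ± 0.040 (SD, n = 6) in root, each with an exact adjusted p of 0.0312, the smallest that 6 plants allow. The p-values were adjusted over the 4 tissues by Benjamini-Hochberg. The 2 MuKiller-labelled endosperms gave log2 ratios of 1.33 and 1.35.

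The excess depended on what the ends were set against. Against only the 10 Mb next to each end, in place of the whole middle, the mean log2 ratio was 0.51 in endosperm, 0.56 in leaf, 0.55 in root and 0.59 in pollen, with the same exact p-values. Among sites read in a single plant the log2 ratio against the middle was 1.21 in endosperm, 1.21 in leaf, 1.14 in root and 1.26 in pollen.

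Leaf of plants without active Mu did not show the excess. Because new sites leave out those of Mu-inactive leaf by definition, all sites read were counted in this comparison. The log2 ratio of ends over middle was -0.02, 0.06 and -0.03 in the 3 Mu-inactive plants, and 1.35, 1.37 and 1.39 as the lowest, median and highest of the 6 Mu-active leaves. The groups did not overlap and the means lay 1.37 apart (two-sided exact permutation p = 0.0119, which is the lowest possible with 3 and 6 plants). The difference was 0.60 against the adjacent 10 Mb and 2.12 over sites with both borders read, with the same p. For new sites no alternative put Mu-active leaf above 1.47. The share given next counts sites read from either border and need not hold where both were read. The Mu-inactive libraries together read 1149 sites in the ends, which is 9.60% of their chromosomal sites (95% Wilson interval 9.08 to 10.1), against an end share of 9.43% in chromosome length. Reads counted after PCR need not be separate molecules, and intervals cover counting error only.

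**Figure D1:**
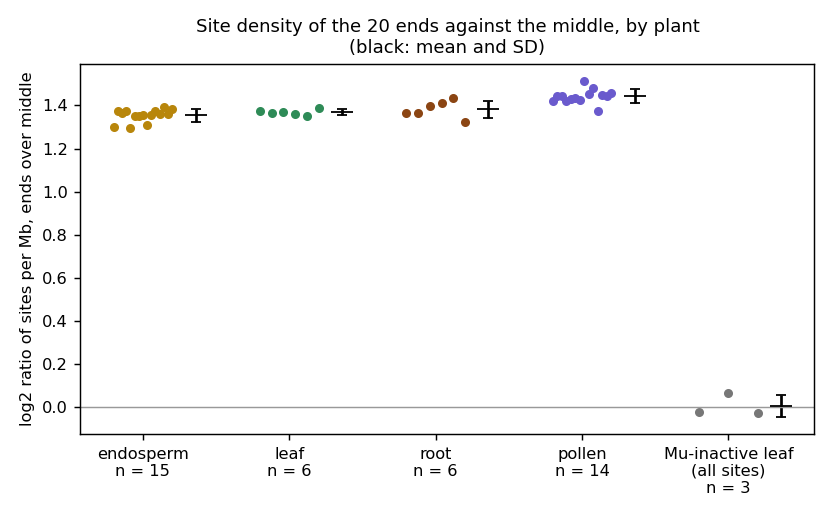
Log2 ratio of sites per Mb in the 20 ends over the middle, 1 point per plant, for new sites in endosperm, leaf, root and pollen and for all sites in Mu-inactive leaf, with the mean and SD in black. The Mu-active values lie between 1.30 and 1.52, and the 3 Mu-inactive values between -0.03 and 0.06.

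The 20 ends differed widely among themselves. Counting each new site once over all libraries, the ends held from 793 to 3202 new sites per Mb with a median of 2262, and the middle of the chromosomes held 893. The last end of chromosome 5, at 212589707 to 222589707 in the coordinates of the files, was the densest of 210 windows of about 10 Mb into which the genome was divided, with 3202 sites per Mb. The first end of chromosome 2 followed with 3165, the last end of chromosome 6 with 3130 and the first end of chromosome 5 with 2887. In all, 12 of the 20 densest windows were ends, 9 ends were the densest window of their chromosome, and 3 of the 190 middle windows were denser than the median end. The last end was denser than the first on 7 of 10 chromosomes, and over all last ends the density was 2476 per Mb against 1816 in the first ends.

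Relative to the middle of its own chromosome, the last end of chromosome 4 stood highest in the reported setting. With both borders read, the last end of chromosome 6 was higher in endosperm, at a log2 ratio of 2.22. In the reported setting the fold of the last end of chromosome 4 was 4.02, 4.19 and 4.74 as the lowest, median and highest of the endosperms, 4.16, 4.21 and 4.45 in leaf, 4.37, 4.64 and 5.02 in root and 3.81, 4.62 and 5.57 in pollen. These ranges overlapped between tissues. At the last end of chromosome 6 the median fold was 3.86 in endosperm, 4.03 in leaf, 4.12 in root and 4.01 in pollen. For the last end of chromosome 7 the medians ran from 3.75 in endosperm to 3.99 in pollen, and for the last end of chromosome 8 from 3.49 in root to 3.73 in leaf. The weakest ends among those above the middle were the first end of chromosome 8, with a mean log2 ratio of 0.64 (SE 0.037) in endosperm, and the last end of chromosome 3, with 0.68 (SE 0.030) in endosperm.

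The ends of chromosomes 2 and 3 differed in strength, unlike those of chromosome 1. The ends of chromosome 1 were alike in density, with 2215 new sites per Mb in the first and 2199 in the last against 1070 in the middle. Their endosperm folds were 1.87, 2.16 and 2.68 (lowest, median, highest) in the first end and 1.97, 2.22 and 2.38 in the last. Endosperm folds in the first end of chromosome 2 were 3.24, 3.46 and 3.68, all above the 1.52 to 2.36 of the last end of the same chromosome. Chromosome 3 had endosperm folds of 2.54, 2.86 and 3.53 in its first end and 1.42, 1.60 and 2.06 in its last, so that the 2 ends did not overlap there either. On both chromosomes the first end was the denser.

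Chromosome 5 was dense at both ends. Its first end had folds of 2.95, 3.16 and 3.55 in endosperm and 2.83, 3.46 and 3.94 in pollen, and its last end 3.12, 3.50 and 3.65 in endosperm and 3.47, 3.74 and 4.37 in pollen. These ranges overlapped between ends and between tissues. On chromosomes 4, 7, 8, 9 and 10 the last end was the denser. Chromosome 4 held 1351 new sites per Mb in its first end against 2822 in the last, chromosome 7 held 1728 against 2697, and chromosome 8 held 1269 against 2836. Chromosome 9 had 808 in its first end and 2308 in its last, and chromosome 10 had 1481 and 2449. In the last end of chromosome 9 pollen had folds of 2.87, 3.15 and 3.58, and endosperm of 1.63, 2.81 and 3.10, of which the lowest was the shallow library of plant 105. Folds in the last end of chromosome 10 were 3.14, 3.43 and 3.68 in endosperm and 3.36, 3.76 and 4.86 in pollen.

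Fitted with limma over all 210 windows and 4 tissues, 18 of 20 ends were above the middle at an adjusted p under 0.05 in endosperm, where 43.3% of all windows were called above. In leaf 18 ends passed against 43.3% of windows, in root 18 against 41.4%, and in pollen 19 against 44.3%. The first ends of chromosomes 6 and 9 were the exceptions.

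The first end of chromosome 6 held 793 new sites per Mb, close to the 873 of the middle of that chromosome. Its fold over the middle had a lowest, median and highest value of 0.754, 0.951 and 1.26 in endosperm, and of 0.785, 0.962 and 0.992 in leaf. The corresponding values were 0.839, 1.03 and 1.39 in root and 0.867, 1.07 and 1.39 in pollen. Values on both sides of 1 occurred in all tissues but leaf. The mean log2 ratio was -0.06 (SE 0.046) in endosperm, -0.11 (SE 0.073) in leaf and 0.11 (SE 0.073) in root, none past the threshold in limma. With array weights it was called below in endosperm (-0.06, adjusted p = 0.0321) and leaf (-0.09, adjusted p = 0.0199). In pollen it was 0.10 (SE 0.048, limma adjusted p = 0.0478), a call that was lost when libraries under a reference level of 1000 were left out (0.09, adjusted p = 0.107) and with the plant as a block (0.10, adjusted p = 0.0527). It was 0.25 with at least 2 counts per site (adjusted p = 0.00197) and 0.26 with both borders read (adjusted p = 0.0916). Against the whole chromosome outside the end, with the dense other end included, this end was called below in endosperm (-0.29, limma adjusted p = 6.78e-08), leaf (-0.36, adjusted p = 1.00e-05) and pollen (-0.15, adjusted p = 0.00207).

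The first end of chromosome 9 held 808 new sites per Mb against 867 in the middle of the chromosome. In endosperm its lowest, median and highest fold were 0.684, 0.831 and 0.961, so that all 15 plants were below the middle. Leaf values spanned 0.892 to 0.994, root values 0.845 to 1.61 and pollen values 0.632 to 1.07. The mean log2 ratio was -0.27 (SE 0.052, limma adjusted p = 6.63e-06) in endosperm, where 51.0% of all windows were called below the middle, and -0.18 (SE 0.053, limma adjusted p = 0.00213) in pollen, where 51.0% were. The endosperm call was lost with both borders read (-0.23, adjusted p = 0.103). Without libraries under a reference level of 1000 the pollen value was -0.05 (adjusted p = 0.364), and with at least 2 counts per site it was -0.13 (adjusted p = 0.149). In leaf and root the end did not pass the threshold (-0.08 and 0.08), but in leaf it was called below against the whole chromosome outside the end (-0.25, adjusted p = 0.00343) and with array weights (-0.08, adjusted p = 0.0182).

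**Figure D2:**
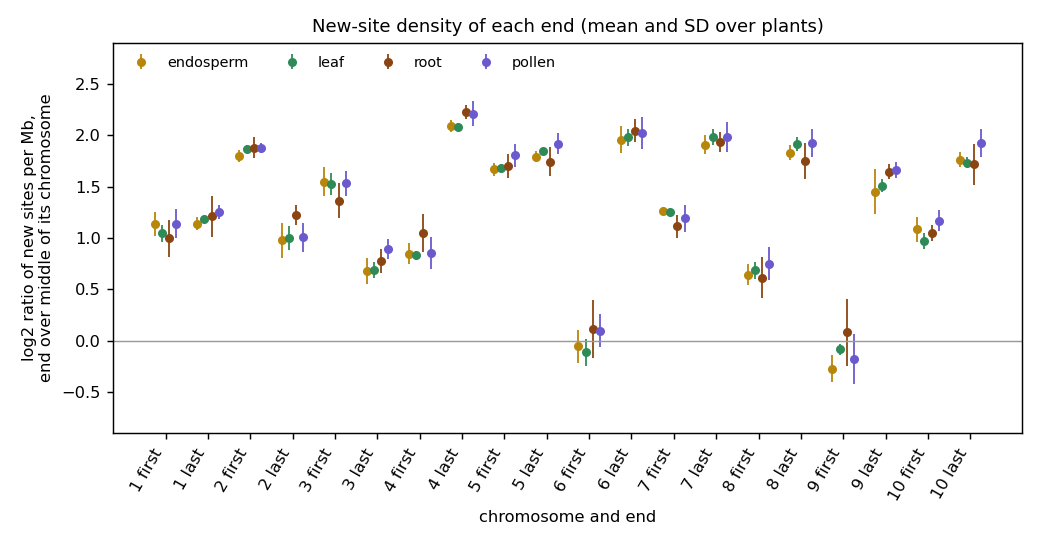
Log2 ratio of new sites per Mb of each end over the middle of its own chromosome, with the mean and SD over 15 endosperms, 6 leaves, 6 roots and 14 pollen samples. The first ends of chromosomes 6 and 9 lie near 0, and the last end of chromosome 4 lies above 2 in all tissues.

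The density was not highest at the very edge. In bins of 1 Mb counted from the outer edge, the outermost bin had a median of 1.43 times the density of the middle over the 20 ends, and 16 of 20 ends were above the middle there. In the second bin the median was 3.06, and it was 2.84, 2.58, 2.95 and 2.82 in the following bins up to 6 Mb. It then lay between 1.84 and 2.24 from 6 to 10 Mb. Beyond the ends the median ranged from 1.32 to 2.00 between 10 and 20 Mb, with 1.87 in the first bin past the 10 Mb border. The distribution within an end was uneven. Of the last end of chromosome 6, 6149 new sites lay in the bin from 5 to 6 Mb, 7.04 times the density of the middle, and 577 in its outermost Mb, 0.661 times. In the first end of chromosome 4 there were 3394 new sites from 1 to 2 Mb and 32 from 8 to 9 Mb. In the last end of chromosome 4 the densest Mb was the second, with 4866 sites and 6.24 times the density of the middle, and the outermost held 1062. Of the 20 ends, 7 had their densest Mb within the outer 2 Mb.

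**Figure D3:**
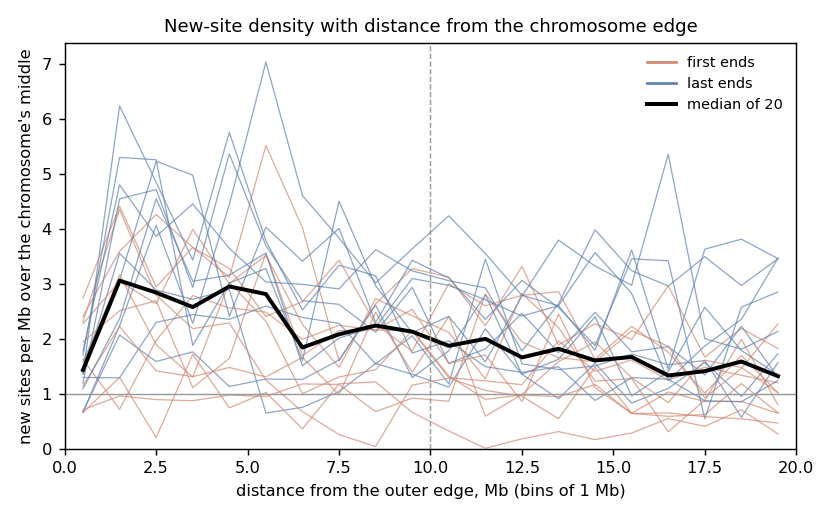
New sites per Mb relative to the middle of the chromosome, against distance from the outer edge in bins of 1 Mb, with 1 line for each of the 20 ends and the median in black. The median is 1.43 in the outermost bin, 3.06 in the second and 2.13 in the bin before the dashed 10 Mb border.

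At the scale of 1 kb, new sites in the ends fell into more windows and into fuller ones. In the ends 17.6% of 1 kb windows held a new site, against 9.94% in the middle, and an occupied window held on average 12.2 new sites, against 8.98. Windows with 50 or more new sites numbered 2398 in the ends, or 11.99 per Mb, and held 42.0% of the new sites there. In the middle there were 4.13 such windows per Mb, which held 33.5% of new sites. The fullest window of all lay in the middle, with 508 new sites. The fullest window of the ends, chr2:242350001-242351000 in the last end of chromosome 2, held 285 new sites from 16 plants. It was followed by chr7:179610001-179611000 with 267 sites, chr6:169054001-169055000 with 266, chr8:177324001-177325000 with 255 and chr7:174348001-174349000 with 214, each with sites from all 17 plants. Between 40% and 60.5% of the sites in these 5 windows were read in 2 or more plants. The genome build is not given in the sources used here, so no gene was assigned to these windows.

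New sites in the ends recurred between plants more often than those in the middle. For each plant the share of its new sites that were also read in another plant had a lowest, median and highest value of 53.9%, 57.2% and 62.6% in the ends and 49.2%, 52.5% and 57.6% in the middle. The ranges overlapped between plants, but within each of the 17 plants the ends had the higher share. The difference was 4.60 ± 0.220 percentage points (SD, n = 17; exact sign-flip test, two-sided, p = 1.53e-05, the smallest that 17 plants allow). A shared site counts in each plant that has it, so the plants are not independent in this test. Counted once each, 113582 of the new sites in the ends (26.5%) and 407845 of those in the middle (23.8%) were read in 2 or more plants. At 5 or more plants the shares were 5.47% and 4.44%, and all 17 plants had 336 new sites of the ends and 922 of the middle, or 0.0783% and 0.0538%.

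**Figure D4:**
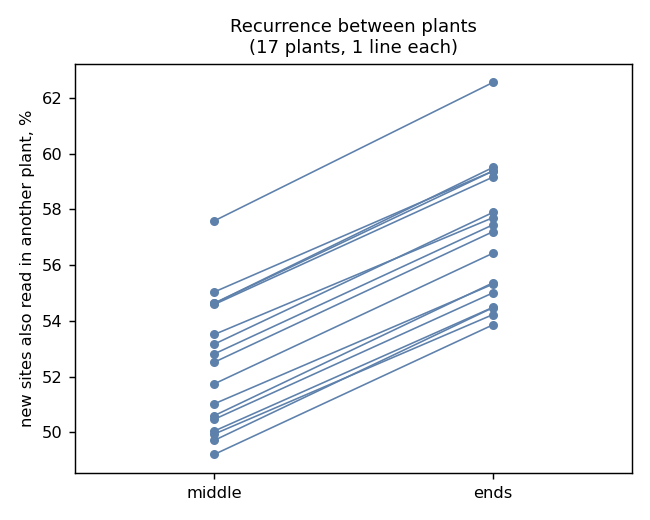
Share of each plant's new sites that were also read in another plant, in the middle and in the ends, with 1 line per plant (17 plants) and an axis that does not start at 0. Each line rises, by 4.19 to 4.97 percentage points.

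In the limma fit over windows, 19 of 20 ends had a higher share of recurrent sites than the middle of their chromosome, where 35.2% of all windows were called higher. The difference was widest in the last end of chromosome 4, where it was 7.79, 10.2 and 11.5 percentage points as the lowest, median and highest of 17 plants (mean 9.96, SE 0.306, limma adjusted p = 5.50e-17). The last end of chromosome 7 followed with a mean of 7.63 points and the last end of chromosome 6 with 5.79. The first end of chromosome 9 went the other way, from -6.31 to 1.55 points with a mean of -3.06 (SE 0.539, limma adjusted p = 2.62e-05), in a direction in which 44.8% of all windows were called. For the first end of chromosome 6 the difference had a mean of 3.04 points and was above 0 in 16 of 17 plants. Spearman's rho between new sites per Mb and the share of sites read in 2 or more plants was 0.74 over the 190 middle windows and 0.67 over the 20 ends, a description of windows that share the same libraries. The part of density in the recurrence of the ends was not tested.

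**Figure D5:**
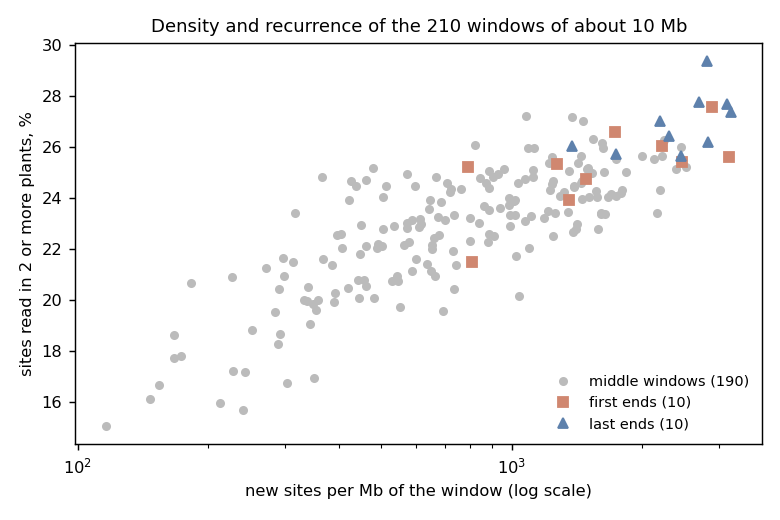
New sites per Mb (log scale) against the share of sites read in 2 or more plants, for 190 middle windows, 10 first ends and 10 last ends. The last end of chromosome 4 has the highest share of all 210 windows, 29.4%, and the first end of chromosome 9 has 21.5%.

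The 5 most recurrent new sites of the ends were each read in all 17 plants, at low abundance. The site at chr6:166313663-166313671 was read in 43 libraries with a median relative abundance of 0.00254 and a highest of 0.0105. The site at chr1:1465152-1465160 was read in 40 libraries with a median of 0.00264 and a highest of 0.0212. Those at chr4:853305-853313, chr5:218592774-218592782 and chr5:212881893-212881901 were read in 40, 40 and 39 libraries with medians of 0.000724, 0.000477 and 0.000797.

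Between tissues, the excess in the ends was slightly larger in pollen. The log2 ratio was lower in endosperm than in pollen by 0.089 (value -0.089; permutation test with 100000 permutations, p adjusted over 6 pairs = 6.00e-05, from the smallest p they can give). In the 13 plants with both tissues it was lower in endosperm in 13 of 13, and with the plant as a block the difference was -0.090 (exact sign-flip test, adjusted p = 0.00146). The labels of the pollen libraries of plants 69 and 99 name different plants, so those pairs are uncertain. Leaf differed from pollen by -0.074 (exact permutation test, adjusted p = 0.000232) and root from pollen by -0.062 (exact permutation test, adjusted p = 0.00243). Both of these calls were lost with the plant as a block, leaf against pollen at -0.082 over 6 plants (exact test, unadjusted p = 0.0312, adjusted p = 0.0938) and root against pollen at -0.071 over 3 plants (exact test, adjusted p = 0.75). The unadjusted value is the smallest that 6 plants allow, and 3 plants cannot pass the threshold. Both calls were also lost when sites needed at least 2 counts (-0.023 and -0.015) or both borders (0.014 and -0.013), and the call of root against pollen was lost in libraries thinned to a reference level of 1000 (-0.023).

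Endosperm, leaf and root did not pass the threshold against each other in the reported setting. Endosperm differed from leaf by -0.015 (exact permutation test, adjusted p = 0.321) and from root by -0.028 (adjusted p = 0.14), and leaf differed from root by -0.013 (adjusted p = 0.47). These 3 pairs depended on the setting. Among sites read in a single plant, the ratio was higher in endosperm than in root by 0.065 and in leaf than in root by 0.064 (exact permutation tests, adjusted p = 0.00178 and 0.00519). With at least 2 counts it was lower in endosperm than in leaf, at -0.061, and than in root, at -0.069 (adjusted p = 0.000111 for both, exact permutation tests), and with both borders read these were -0.087 and -0.059 (adjusted p = 0.000442 and 0.0319). Endosperm was also called below leaf against the adjacent 10 Mb (-0.055, adjusted p = 0.00199), and below root with ends of 5 Mb (-0.049, adjusted p = 0.0296) and as a mean over the ends (-0.049, adjusted p = 0.0087).

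Depth moved with tissue. Pollen libraries had reference levels of 69 to 7022 and endosperm libraries of 768 to 29232. With libraries under a reference level of 1000 left out and the others thinned to 1000, endosperm lay below pollen by 0.081 (value -0.081, exact permutation test, adjusted p = 7.34e-06). In that setting endosperm also lay below leaf (-0.035) and root (-0.057; exact permutation tests, adjusted p = 0.00971 for both), leaf lay below pollen (-0.046, adjusted p = 0.0042), and root against pollen did not pass (-0.023, adjusted p = 0.383). Thinning matched the reference level alone, not total counts or sites read. Within endosperm, Pearson's r between the log2 reference level and the log2 density ratio was 0.39 (permutation p = 0.159, n = 15) and Spearman's rho was 0.01 (permutation p = 0.964), while leaving out the 2 plants farthest from the median level turned r to -0.57. In pollen r was 0.09 (permutation p = 0.749, n = 14), rho was 0.0022 (permutation p = 1) and r without the 2 farthest was -0.55. The adjusted p of r over these 2 relations was 0.317 in endosperm and 0.749 in pollen.

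Single ends differed between tissues in 12 of 120 comparisons of an end with a tissue pair, where 3.49% of all 1260 comparisons over windows were called by limma. Endosperm was below pollen in 6 ends, leaf below pollen in 2, root below pollen in 2 and endosperm below root in 2. In the last end of chromosome 3 the median fold over the middle was 1.60 in endosperm, 1.60 in leaf and 1.88 in pollen (endosperm minus pollen -0.21, SE 0.043, limma adjusted p = 0.00487). The endosperm and pollen ranges, 1.42 to 2.06 and 1.68 to 2.13, overlapped. In the first end of chromosome 9 endosperm lay below root by 0.35 on the log2 scale (value -0.35, SE 0.097, limma adjusted p = 0.039). Without libraries under a reference level of 1000, 10 of the 12 calls were kept, and both calls in the last end of chromosome 5 were lost (endosperm minus pollen -0.07, root minus pollen -0.13, limma adjusted p = 0.225 and 0.0593). None of the 120 passed in limma when sites needed at least 2 counts or both borders, where 15 and 11 had an unadjusted p under 0.05 against 45 in the reported fit.

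The abundance of new insertions in the ends was close to that in the middle. The mean count of a new site in the ends over that in the middle had a lowest, median and highest value of 0.940, 1.00 and 1.04 in endosperm, and of 0.992, 1.04 and 1.13 in leaf. The corresponding values were 0.976, 1.05 and 1.46 in root and 0.931, 1.02 and 1.28 in pollen. Each range included 1. The highest root and pollen values were those of plants 65 and 69, whose libraries held the most abundant end sites named below. No tissue passed the threshold against a ratio of 1 (exact sign-flip tests, adjusted p from 0.25 to 0.512). On the log2 scale endosperm was lower than leaf by 0.084 (value -0.084, exact permutation test, adjusted p = 0.00885) and lower than root by 0.17 (value -0.17, exact permutation test, adjusted p = 0.0188). Both calls were lost with the plant as a block, at -0.088 over 5 plants and -0.14 over 4 plants (exact tests, adjusted p = 0.6 for both), numbers of plants that cannot pass the threshold. The leaf difference was kept in 5 of 11 alternatives and also lost its call for single-plant sites (-0.038), with at least 2 counts (-0.087), both borders (-0.079), ends of 20 Mb (-0.031) or all sites read (-0.072). The root difference was kept in 4 of 11, with a positive value of 0.14 for all sites read. It also lost its call without the root of plant 65 (-0.096), of plant 61 or of plant 74 (exact permutation tests, adjusted p up to 0.0658).

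By end, 3 of 80 comparisons of an end and a tissue were called above the middle in counts per new site and 5 below, where 0.833% and 12.6% of all comparisons over windows were. Of the 8 calls 7 were in root, where plants varied widely (SD of the log2 ratio 1.16 in the first end of chromosome 4 and 1.37 in that of chromosome 5), and with array weights limma made 1 call among the 80. The root values were higher than the middle in the first ends of chromosomes 4 (median ratio 1.44) and 5 (1.48), and lower in the first ends of chromosomes 8 (0.595) and 10 (0.571) and in the last ends of chromosomes 8 (0.699) and 9 (0.655), with the first end of chromosome 6 also lower (mean log2 -0.97). In the last end of chromosome 6 the leaf log2 ratio was 0.23, 0.34 and 0.90 as the lowest, median and highest of 6 plants. When each site's count was capped at 10, a setting chosen after seeing the data, 1 of the 80 was called.

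The most abundant new site of the ends in root had a relative abundance of 0.682 (95% Poisson interval 0.666 to 0.698) in plant 65, at chr5:3855998-3856006. It was read there with 3552 counts at the left border and 3434 at the right, and at 0.00407 in the endosperm of the same plant. That root site was read in 2 plants in all. In leaf the most abundant was chr8:1768403-1768411 in plant 76, at 0.280 (0.268 to 0.291). This leaf site was read in no other library of plant 76, but in 8 plants in all. In pollen the most abundant was chr7:179533765-179533773, at 1.22 (1.17 to 1.28), read in no other plant. The labels of that pollen library give the plant as ND58-69 in one field and ND67-69 in another, so its match to the endosperm of plant 69 is uncertain. Its class as new rests on that match, so an inherited site is possible here. At 0.1 or more this library had 10 new sites, 5 of them in the ends, and the other pollen libraries had from 0 to 24. In the pollen of plant 83, chosen after values were seen, the site chr9:159535430-159535438 had 0.543 (0.462 to 0.634, from 159 counts). In endosperm the site at chr1:309901533-309901541 in plant 52 had 0.105 (0.102 to 0.109), but its 3078 counts are 2 times the 1539 at the right border and not the sum with the 181 at the left. That endosperm site was read in 11 plants in all. In a setting chosen after seeing the data, relative abundance was taken from 1 border alone, and the left and right border gave 0.722 and 0.831 for the root site, 0.310 and 0.344 for the leaf site, 2.40 and 0.823 for the pollen site and 0.0136 and 0.135 for the endosperm site. The most abundant endosperm site whose count was the sum of its borders, also chosen after values were seen, was chr1:7879573-7879581 in plant 52, at 0.0654 (0.0625 to 0.0684), and it was read in all 17 plants.

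Sites at a relative abundance of 0.01 or more were counted among the new sites, leaving out libraries with reference levels under 1000. In endosperm 92 of them lay in the ends and 407 in the middle (18.4% in the ends), and in leaf 103 and 356 (22.4%). In root 121 lay in the ends and 453 in the middle (21.1%), and in pollen 496 and 1870 (21.0%). For comparison, the share of all new sites that lay in the ends had medians per library of 21.1% in endosperm, 21.2% in leaf, 21.3% in root and 22.1% in pollen.

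Inherited insertions, as defined by the threshold above, were also found in the ends. Of the distinct inherited sites absent from Mu-inactive leaf, 82 lay in the ends and 341 in the middle, so that the ends held 19.4% (95% Wilson interval 15.9 to 23.4) and 2.31 times the density of the middle. Each plant had from 2 to 17 of them in the ends, with a median of 7. The last end of chromosome 7 held 8 and the last end of chromosome 8 held 7, while the first end of chromosome 9 held 0. The plants are progeny of Mu-active male parents of 1 inbred background and can carry the same inherited site, so plants are not independent in these counts.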

How the data were processed

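Insertion sites were compared in undiluted Mu-active and Mu-inactive W22 libraries. The authors deposited raw counts of reads per site for each library, as a combined table and as 1 table for each border. The submitters' processing notes name Bowtie2. How sites were called, on which genome build and with which filters or molecular identifiers is not given in the sources used here. Combined counts differ from the sum of the borders at 163 sites. Endpoints, site classes and named-site rules were chosen with earlier results of these data known.

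Ends were the outer 10 Mb, and the middle was the rest. Library values were log2 ratios within a library. Technical libraries were averaged, and plants were replicates, which the labels give as separate plants. Plant numbers pair tissues of the same plant, per the labels, and a second fit took the plant as a block. Same-plant density ratios had r = -0.03 between endosperm and pollen (permutation p = 0.904, n = 13), rho = 0.24 (permutation p = 0.437) and r = -0.41 without the 2 farthest plants. For leaf against pollen Pearson's r came to 0.16 (exact permutation p = 0.788, n = 6) and rho to -0.03 (exact permutation p = 1), and leaving out the 2 farthest plants gave r = -0.85.

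Tests were two-sided: exact sign-flip tests at every number of plants, permutation tests between groups that were exact where a group had under 10 plants and otherwise drew 100000 permutations, and limma with Benjamini-Hochberg adjustment over 210 windows of about 10 Mb and all tissues or pairs, after log2((sites + 0.5) per Mb). The sites named in the text were, for each tissue, the most abundant new end site with at least 10 counts and both borders, the 5 end sites read in most plants and the 5 end windows of 1 kb with most new sites. Relative abundance is a count over the reference level. Poisson and Wilson intervals are 95%. Labels name different plants for 3 libraries, the second leaf library of plant 75 and the pollen of plants 69 and 99. Library names were followed, also in the pairing, in the classing of inherited sites and in the recurrence counts. Alternatives were the sites counted, the end size, the comparison region, depth, weights, the plant block and leaving out plants.

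Counts were simulated for 210 windows with the real library sizes. Between endosperm and pollen, 40 of 40 windows changed by 0.5 (log2) in pollen were called, and 5 of 170 unchanged windows were. In the real libraries the called endosperm minus pollen differences of single ends were smaller in size, from -0.21 to -0.12. How often differences of that size would be called was not tested. Python 3.11.15, numpy 2.4.6, pandas 2.3.3, scipy 1.17.1, matplotlib 3.10.9, R 4.3.3 and limma 3.58.1 were used. Gene context was not analysed here.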

Additional observations from a re-analysis of the deposited data

Results flagged for a closer look

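Among 84 groups of 6 plants, 17 had a plant far from the other 5 of its tissue by Dixon's ratio. For independent, normally distributed values, chance alone gives such a plant in about 1 group in 20. The groups share the same plants, so they are not independent, and normality was not tested. That rate need not hold here. Several of the 17 came from the same plants. In root density the root of plant 75 was low in the first ends of chromosome 1 (log2 ratio 0.66), chromosome 2 (1.67), chromosome 3 (1.03) and in the last end of chromosome 8 (1.40), and the root of plant 74 was high in the last ends of chromosome 3 (1.00) and chromosome 10 (2.10). These 2 roots had 5991 and 5206 sites read, the fewest of the 6. In leaf density plant 76 was high in the last end of chromosome 4 (2.15) and plant 74 in the last end of chromosome 7 (2.13).

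The other such plants stood apart in counts per new site, where a few abundant sites weigh heavily. In leaf the log2 ratio was 0.67 in the first end of chromosome 4, 0.90 in the last end of chromosome 6, 0.72 in the last end of chromosome 7, 1.81 in the first end of chromosome 8 and 1.08 in the first end of chromosome 9. The value in the first end of chromosome 8 was that of plant 76, whose site at a relative abundance of 0.280 lies there. In root it was 0.61 in the first end of chromosome 1, -0.87 in the first end of chromosome 2, -1.68 in the last end of chromosome 5 and -2.16 in the last end of chromosome 10.

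Tissues differed in the pooled density ratio, with differences of -0.089 for endosperm minus pollen, -0.074 for leaf minus pollen and -0.062 for root minus pollen. In counts per new site endosperm minus leaf was -0.084 and endosperm minus root was -0.17. In single ends, limma called endosperm minus root in the last end of chromosome 2 (-0.25) and in the first end of chromosome 9 (-0.35). It called endosperm minus pollen in the last ends of chromosomes 3 (-0.21), 4 (-0.12), 5 (-0.13), 9 (-0.21) and 10 (-0.16) and in the first end of chromosome 5 (-0.13). Leaf minus pollen was called in the last end of chromosome 3 (-0.20) and the first end of chromosome 10 (-0.20), and root minus pollen in the last ends of chromosomes 5 (-0.17) and 10 (-0.21).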

How the results depend on the processing

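The density excess of the ends kept its direction and call in all 4 tissues under 10 or 11 alternatives each (log2 0.51 to 1.49), as did the recurrence difference under 7 (3.33 to 5.45 points) and endosperm minus pollen under 12 (-0.110 to -0.055). In all recurrence settings any count in another plant made a site shared, and a stricter cutoff there was not tested. Leaving out 1 plant left the log2 density ratio at 1.36 to 1.37 in leaf and 1.37 to 1.39 in root, where 5 plants cannot pass the threshold (exact sign-flip test, p = 0.0625). Without 1 plant, endosperm minus root ranged from -0.040 to -0.018 in density, called without root plant 75, and from -0.21 to -0.096 in counts per site. For the other changes below, the cause was not tested. For single-plant sites, density differences were 2.998e-05 (endosperm minus leaf), 0.065 (endosperm minus root) and 0.064 (leaf minus root), and count differences -0.038 (endosperm minus leaf), -0.14 (endosperm minus pollen) and -0.10 (leaf minus pollen). With all sites read, counts per site were -0.80, -0.73, -0.94 and -0.68 in endosperm, leaf, root and pollen, and the differences -0.072 (endosperm minus leaf), 0.14 (endosperm minus root), 0.21 (leaf minus root), -0.053 (leaf minus pollen) and -0.26 (root minus pollen). At 2 or more counts, density differences were -0.061 and -0.069 (endosperm minus leaf and root), -0.023 and -0.015 (leaf and root minus pollen), and count differences -0.087 and -0.15 (endosperm minus leaf and root). With both borders, these were -0.087, -0.059, 0.014, -0.013, -0.079 and -0.16, and leaf minus root was 0.028. With 5 Mb ends, endosperm minus root was -0.049 in density and -0.16 in counts. With 20 Mb ends, endosperm minus leaf was 0.016 in density and -0.031 in counts, and endosperm minus root -0.077 in counts. Against the adjacent 10 Mb, density gave -0.055 (endosperm minus leaf), 0.013 (leaf minus root), -0.032 and -0.045 (leaf and root minus pollen), and counts -0.25 (endosperm minus root). As a mean over ends, the values were -0.049 (endosperm minus root) and -0.040 (root minus pollen). Thinned to a level of 1000, density differences were -0.035 and -0.057 (endosperm minus leaf and root) and -0.023 (root minus pollen). With the plant as a replicate block, leaf minus pollen was -0.082 and root minus pollen -0.071 in density, and count differences were -0.088 and -0.14 (endosperm minus leaf and root) and -0.14 (root minus pollen). With counts capped at 10, counts gave 0.011 in endosperm, 0.0019 (endosperm minus pollen), 0.028 and 0.031 (leaf and root minus pollen). End calls between tissues were 12 in the reported fit, 23 with array weights, 22 at a reference level of 1000 or more, 0 with 2 or more counts and 0 with both borders. End calls in counts per site were 8, and 1 with array weights, 60 with all sites and 1 with capped counts. Shares over all windows were taken in the reported fit only. The counts of end calls in the other settings therefore stand without a background and are not a result about the ends. The first end of chromosome 6 turned to 0.01 (2 or more counts) and 0.040 (both borders) in endosperm, 0.032 in leaf (both borders), and, against the whole chromosome, to -0.14 in root and -0.15 in pollen, and the first end of chromosome 9 to -0.11 in root. Shallow pollen limits what single ends can show: 3 counts are a relative abundance of 0.0435 in the shallowest library and 0.000427 in the deepest.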
